A study of Mus musculus with 9 samples.

Results

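The classical drivers of epithelial-mesenchymal transition (EMT) are 6 transcription factors, namely the zinc finger proteins SNAI1 (Snail), SNAI2 (Slug), ZEB1 and ZEB2 and the basic helix-loop-helix (bHLH) proteins TWIST1 and TWIST2. They were taken by gene symbol, and each of the 6 genes was read by 1 probe set among the 24704 probe sets with a single gene symbol that were tested, out of 25428 in the deposited table. The RNA came from primary myoblasts derived from satellite cells (muscle stem cells) of the hindlimb of C57BL/6 mice (substrain N in the methods). Arrays of 3 groups, with 3 arrays each, were compared after 24 h of differentiation followed by a further 24 h with 20 ng/ml of recombinant TGFβ1, with ITD-1, or without either (control). ITD-1 is a small molecule that causes loss of the TGFβ receptor of type II, and its dose reads 5 mM in the labels but 5 µM in the methods. Values are log2 signals from a whole-transcript mouse array (Affymetrix GeneChip MouseGene 2.0 ST), normalised together, so that 1 unit is a 2-fold difference. The study describes the samples of a group as biologically independent, the labels name no animals, and p-values measure only the spread between these samples.

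In EMT, epithelial cells give up cadherin junctions and polarity and take on a migratory, matrix-producing state. SNAI1, SNAI2, ZEB1 and ZEB2 bind E-box sequences in promoters such as that of E-cadherin and repress them together with corepressors, while TWIST1 and TWIST2 pair with E proteins to bind E-boxes. TGFβ, acting through SMAD proteins, raises the transcription of several of these factors in epithelial cells, and microRNAs of the miR-200 family and miR-205 hold ZEB1 and ZEB2 down in epithelial cells. In muscle progenitors the same proteins are known from another setting, since SNAI1 and SNAI2 compete with MYOD for E-boxes in proliferating myoblasts, and TWIST1 and ZEB1 restrain muscle gene expression.

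Sequences of RefSeq (build GRCm38.p6) were at hand for the promoters of 4 of the 6 genes, each of 250 bases before and 50 bases after the annotated start site. The promoters of *Snai1* and *Zeb2* are shown, the first because SNAI1 is known from human cells to bind an E-box of its own promoter and the second because *Zeb2* gave the only difference that passed the test. *Snai1* lies at chr2:167537945-167538244 on the plus strand, and *Zeb2*, at the first of its 4 annotated starts, at chr2:45117393-45117692 on the minus strand. Capitals mark the motif CACCTG, searched on both strands.
Snai1 promoter: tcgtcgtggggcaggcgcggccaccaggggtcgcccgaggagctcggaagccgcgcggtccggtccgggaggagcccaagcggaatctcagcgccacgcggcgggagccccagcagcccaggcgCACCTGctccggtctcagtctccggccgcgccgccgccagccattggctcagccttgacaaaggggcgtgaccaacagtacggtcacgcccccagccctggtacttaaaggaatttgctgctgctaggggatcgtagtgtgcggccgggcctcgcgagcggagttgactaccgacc
Zeb2 promoter: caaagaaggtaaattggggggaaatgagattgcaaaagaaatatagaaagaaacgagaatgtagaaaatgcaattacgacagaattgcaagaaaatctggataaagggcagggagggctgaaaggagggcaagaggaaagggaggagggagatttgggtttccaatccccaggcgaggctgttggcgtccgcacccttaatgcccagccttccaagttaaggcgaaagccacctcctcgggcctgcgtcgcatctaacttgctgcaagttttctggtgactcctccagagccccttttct
The motif in *Snai1* begins at position -126 from the start site and is the only E-box of the general form CANNTG, which includes it, in that window. Of the 32851 promoters of 300 bases, 20.2% held the first of these motifs and 72.3% the general form, so that neither is rare. None of the 4 *Zeb2* windows held either E-box form, nor the SMAD-binding letters CAGAC (in 49.6% of all promoters) or the longer SMAD palindrome GTCTAGAC (in 0.213%). Among the other promoters, that of *Twist1* held 1 CAGAC and that of *Twist2* held none of these motifs.

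Of the mature microRNAs known to target *Zeb1* and *Zeb2*, 5 are shown, which are not the full miR-200 family. They are shown because their shared seeds (bases 2 to 8, in capitals) make them 3 groups of repressors rather than 5 separate ones. The sequences are from RefSeq, and the letters are RNA.
miR-200a-3p: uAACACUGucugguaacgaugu
miR-141-3p: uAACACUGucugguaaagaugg
miR-200b-3p: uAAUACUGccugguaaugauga
miR-200c-3p: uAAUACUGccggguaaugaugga
miR-205-5p: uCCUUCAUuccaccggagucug
miR-200a-3p (chr4:156054911-156054932, minus strand) and miR-141-3p (chr6:124717917-124717938, minus strand) share the seed AACACUG. miR-200b-3p (chr4:156055685-156055706, minus strand) and miR-200c-3p (chr6:124718324-124718346, minus strand) share AAUACUG, which differs from the first by 1 letter, and miR-205-5p (chr1:193507503-193507524, minus strand) stands alone. By position the printed ones with these 2 shared seeds pair otherwise, with 1 of each seed on chromosome 4 and 1 of each on chromosome 6.

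Muscle identity was read from its markers, with 12 of 12 skeletal muscle markers at or above 4.15, the median of the probe set means, and with 3 of 4 satellite cell, 5 of 6 mural cell, 1 of 7 fibroblast, 1 of 6 endothelial, 2 of 6 immune and 0 of 2 glial markers at that level. Array medians lay between 4.11 and 4.20. Detection calls were not used here, so a level below 4.15 is described as low and not as absent. Of the TGFβ response genes analysed, 4 of 4 rose with TGFβ1 (*Ccn2* 3.68-fold, *Pmepa1* 3.07-fold, *Skil* 1.95-fold and *Smad7* 1.89-fold), while none of the 4 passed the test with ITD-1. Summed linear signals of the 6 mural cell markers ran from 834 to 917 in control, 415 to 435 in TGFβ1 and 649 to 712 in ITD-1 arrays. With TGFβ1 this sum moved with 2 of the 6, *Rgs5* (-1.28) and *Abcc9* (-1.48), while the other 4 were not called and the median of the 6 was 0.00, and with ITD-1 *Rgs5* alone was called (-1.02). Sums of the 4 satellite cell markers ran from 342 to 366, 420 to 507 and 273 to 327, where *Spry1* (0.92 with TGFβ1) was the 1 of 4 called and the median of the 4 was 0.10. Sums of the 12 skeletal muscle markers ran from 42570 to 44580, 41000 to 42510 and 44320 to 45440. With TGFβ1, 1 of the 12 was called higher, *Ckm* (0.93), and 1 lower, *Myh3* (-0.31), and the median of the 12 was -0.07. Of the 6 immune markers, 1, *Itgam*, was called lower with TGFβ1 (-0.74), and the median of the 6 was -0.04. The part of these shifts in the values that follow was not tested.

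With TGFβ1, none of the 6 EMT-type factors passed the test against control. The 6 differences ran from -0.20 to 0.07 on the log2 scale, with a median of -0.09 against -0.01 for all probe sets, and their median size of 0.09 equalled that of all probe sets. Over all probe sets tested, limma's moderated test with Benjamini-Hochberg adjustment called 3.65% higher and 2.78% lower in this comparison, against 0 and 0 of the 6 genes. Of the 6, 0 met the criteria of the methods, an unadjusted p under 0.05 and a difference of at least 1.5-fold. Of all probe sets, 3.34% met them. With ITD-1 the differences from control ran from -0.09 to 0.17. Here 0 of 6 were called in either direction, where 0.0607% of all probe sets were called higher and 0.575% lower. The methods' criteria were met by 0 of the 6 and by 0.631% of all probe sets. Both comparisons used the same control arrays. The direct comparison of TGFβ1 with ITD-1, the 2 opposite manipulations of the pathway, gave 1 call among the 6, *Zeb2*, which was lower with TGFβ1, where 4.26% of all probe sets were called lower and 5.92% higher, and 0 met the methods' criteria, against 5.33% of all. Here the median size of the 6 differences was 0.15 against 0.10 for all probe sets, and their median was -0.15 against -0.03.

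**Figure D1:**
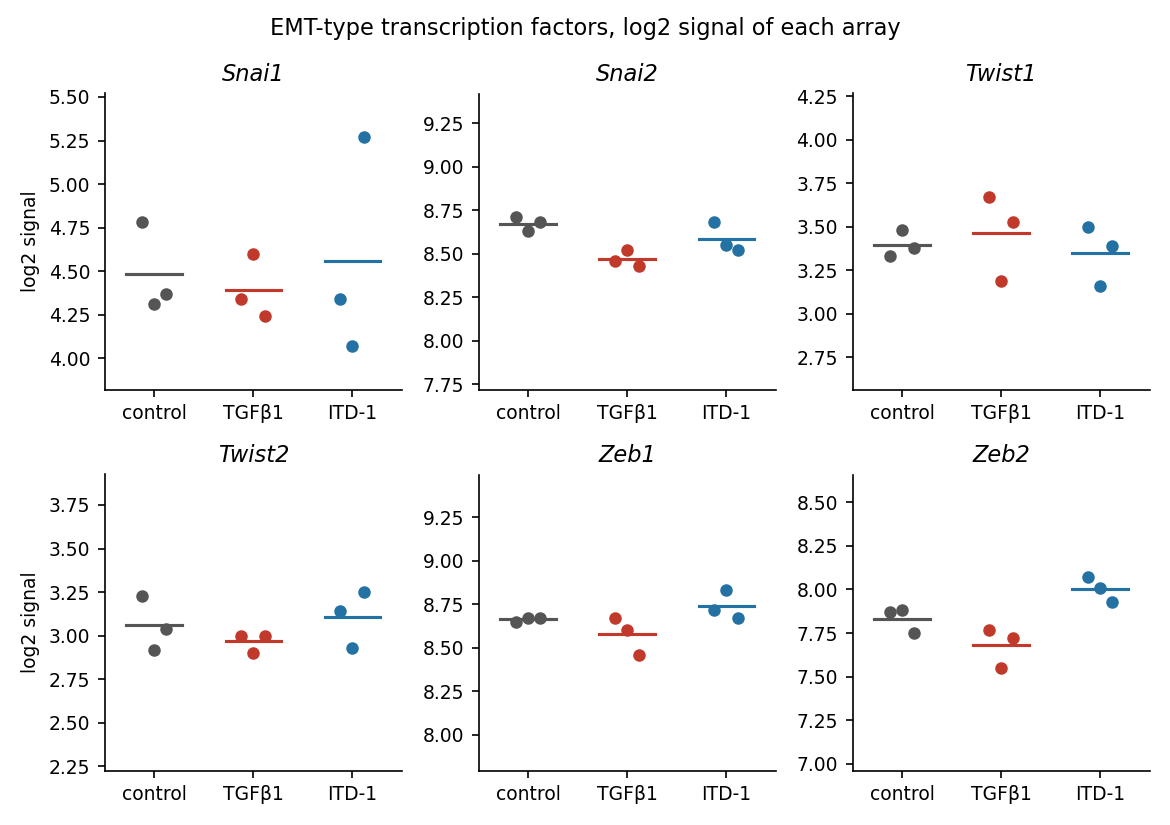
Log2 signal (y axis, every panel spanning the same range of 1.7 units) of each of the 9 arrays (points) for the 6 genes, by group (x axis, 3 arrays each), with the group mean as a line. The control, TGFβ1 and ITD-1 points overlap for *Snai1*, *Twist1* and *Twist2*, the *Snai1* point at 5.27 is ITD-1 replicate 3, and the TGFβ1 points of *Zeb2* lie below its ITD-1 points.

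*Snai1* encodes Snail, described as an early target of TGFβ in epithelial cells. Its log2 signals were 4.78, 4.31 and 4.37 in the control arrays, 4.34, 4.60 and 4.24 with TGFβ1, and 4.34, 4.07 and 5.27 with ITD-1. The highest value belonged to ITD-1 replicate 3, the lowest to ITD-1 replicate 2, and the 3 groups overlapped. TGFβ1 differed from control by -0.09 (SE 0.27, 95% interval -0.70 to 0.51, adjusted p = 0.935). In folds of the measured signal this interval reaches from 0.615 to 1.43. A rise of up to 1.43-fold in signal lies within it and a larger one does not. The mean of *Snai1* over all arrays was 4.48, only a little above the median level of 4.15. True differences can read smaller than they are at such signals, so the interval bounds the signal and not the RNA. ITD-1 differed from control by 0.08 (interval -0.53 to 0.69, adjusted p = 0.976), and TGFβ1 from ITD-1 by -0.17 (interval -0.78 to 0.44, adjusted p = 0.796). The standard error of *Snai1* was the largest of the 6 genes, the smallest being 0.07, and its standard deviation among the ITD-1 arrays was 0.63. ITD-1 replicate 3 stood 1.07 above the mean of the other ITD-1 arrays, a rise that only 19 of the 24704 probe sets, *Snai1* included, reached. Without that array, the ITD-1 difference of *Snai1* from control turned to -0.28 and the TGFβ1 difference from ITD-1 to 0.19, neither of which passed the test.

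*Snai2*, encoding Slug, was read well above the median level and with little spread. Its values were 8.71, 8.63 and 8.68 in control arrays, 8.46, 8.52 and 8.43 with TGFβ1, and 8.68, 8.55 and 8.52 with ITD-1. All 3 TGFβ1 arrays were below all 3 control arrays, and the highest TGFβ1 and the lowest ITD-1 array were both 8.52 to 2 decimals, the former lower before rounding. The difference of TGFβ1 from control was -0.20 (SE 0.07, interval -0.35 to -0.05), or 1.15-fold, with an unadjusted p of 0.0131 and an adjusted p of 0.136, and so was not called. Groups that did not overlap, with the TGFβ1 arrays lower, were found for 10.1% of all probe sets, and *Snai2* was the 1 gene of the 6 to show this. Against ITD-1 the difference was -0.11 (interval -0.26 to 0.04, adjusted p = 0.403), and ITD-1 differed from control by -0.09 (interval -0.24 to 0.06, adjusted p = 0.817). The order of the means was control, ITD-1, TGFβ1 from highest to lowest, and no step in it passed the test. A rise with TGFβ1 lay outside the interval for this gene.

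*Twist1*, a bHLH factor of mesoderm that forms dimers with E proteins, and its close relative *Twist2* were the 2 genes of the 6 read below the median level. *Twist1* gave 3.33, 3.48 and 3.38 in control, 3.67, 3.19 and 3.53 with TGFβ1, and 3.50, 3.16 and 3.39 with ITD-1. Replicate 2 was the lowest array of both treated groups and the highest of the controls, and all 3 groups overlapped. Its difference with TGFβ1 was 0.07 (interval -0.22 to 0.36, adjusted p = 0.882), with ITD-1 -0.04 (interval -0.33 to 0.24, adjusted p = 0.966), and between the treatments 0.11 (interval -0.17 to 0.40, adjusted p = 0.696). *Twist1* was the only gene of the 6 whose mean was higher with TGFβ1 than in control or ITD-1 arrays, by amounts within the spread, and without TGFβ1 replicate 1 its difference from control was -0.03. *Twist2* gave 3.23, 2.92 and 3.04 in control, 3.00, 2.90 and 3.00 with TGFβ1, and 3.14, 2.93 and 3.25 with ITD-1. Here too the groups overlapped, and replicate 2 was the lowest array of each. Its differences were -0.10 with TGFβ1 (interval -0.33 to 0.14, adjusted p = 0.768), 0.04 with ITD-1 (interval -0.19 to 0.28, adjusted p = 0.953) and -0.14 between the treatments (interval -0.37 to 0.09, adjusted p = 0.518). At low array signals true differences read smaller than they are, so the intervals of these 2 genes bound the measured signal and not the RNA.

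*Zeb1*, a zinc finger homeodomain repressor of E-cadherin, was read with little spread among control arrays. It gave 8.65, 8.67 and 8.67 in control, 8.67, 8.60 and 8.46 with TGFβ1, and 8.72, 8.83 and 8.67 with ITD-1. TGFβ1 replicate 3 was the lowest and ITD-1 replicate 2 the highest array, and the control arrays fell between or among the others. The difference of TGFβ1 from control was -0.09 (interval -0.25 to 0.08, adjusted p = 0.677) and that of ITD-1 was 0.08 (interval -0.09 to 0.24, adjusted p = 0.872). Between the treatments *Zeb1* differed by -0.16 (interval -0.33 to 0.00, unadjusted p = 0.0515, adjusted p = 0.240). The TGFβ1 and ITD-1 arrays of *Zeb1* did not overlap before rounding, but the highest of the former and the lowest of the latter are both 8.67 to 2 decimals.

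*Zeb2*, the second member of the ZEB pair and, as SIP1, named for its binding to SMAD proteins, was the gene that separated the treatments. It gave 7.87, 7.88 and 7.75 in control, 7.77, 7.55 and 7.72 with TGFβ1, and 8.07, 8.01 and 7.93 with ITD-1. Every ITD-1 array lay above every control array and every TGFβ1 array, while control replicate 3 fell within the TGFβ1 range. TGFβ1 was lower than ITD-1 by a log2 difference of -0.32 (SE 0.08, interval -0.50 to -0.14), or 1.25-fold, with an adjusted p of 0.0291 from limma, which passed the threshold of 0.05. An exact two-sided permutation test of the 6 arrays gave p = 0.1, the smallest that 3 against 3 allows. Neither treatment passed the test against control, TGFβ1 differing from control by -0.15 (interval -0.33 to 0.02, adjusted p = 0.402) and ITD-1 from control by 0.17 (interval -0.01 to 0.34, adjusted p = 0.660). ITD-1 arrays wholly above control arrays were found for 5.22% of all probe sets and, among the 6 genes, for *Zeb2* alone. TGFβ1 arrays wholly below ITD-1 arrays were found for 12.1% of all probe sets and for 3 of the 6, *Snai2*, *Zeb1* and *Zeb2*. The call for *Zeb2* was lost when TGFβ1 replicate 2 (adjusted p = 0.0981), TGFβ1 replicate 3 (0.0519), ITD-1 replicate 1 (0.1002) or ITD-1 replicate 2 (0.0819) was left out, and a 1.25-fold difference is below the 1.5-fold that the methods required. In cultures measured as a whole, fewer cells with a transcript and less of it per cell cannot be told apart.

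**Figure D2:**
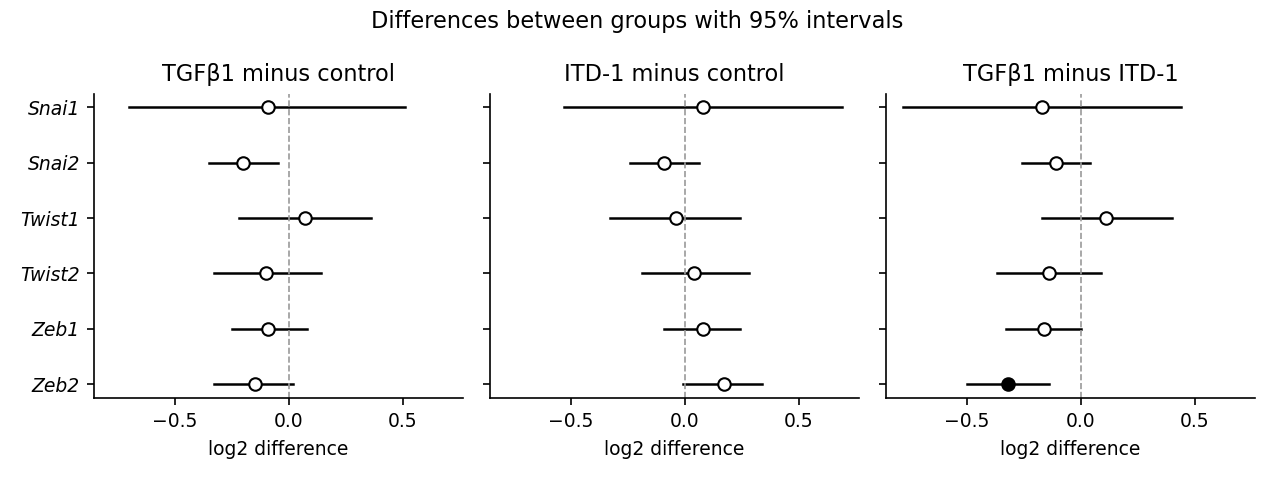
Log2 difference between group means (x axis) for the 6 genes (y axis) in the 3 comparisons, with bars for the 95% interval from the fit to all 9 arrays, open points for an adjusted p of 0.05 or more and a filled point for one below. The one filled point is *Zeb2* at -0.32 for TGFβ1 minus ITD-1, and the bars of *Snai1* are the longest, reaching from -0.70 to 0.51 for TGFβ1 minus control.

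The genes whose pattern over the 9 arrays was most like that of *Zeb2*, by Pearson's r among 11167 probe sets that reached the median level (predicted genes and microRNAs left out), were *Vstm4* (r = 0.963), *Ppp3r1* (r = 0.957), a regulatory subunit of the phosphatase calcineurin, and *AI506816* (r = 0.953). These correlations describe 9 arrays in 3 groups and carry no test. *Vstm4* differed between TGFβ1 and ITD-1 by -0.57 and *AI506816* by -0.48, both larger than *Zeb2*, and *Ppp3r1* by -0.23. Because these genes were picked for their likeness to *Zeb2* in the same arrays, their differences are not a separate test. The transcript named for the strand opposite to *Zeb2*, *Zeb2os*, chosen after its values were seen, gave 3.82, 3.49 and 3.76 in control, 3.40, 3.41 and 3.45 with TGFβ1, and 3.70, 3.91 and 4.08 with ITD-1. Its TGFβ1 arrays were lower than its ITD-1 arrays by -0.48 (interval -0.73 to -0.23, adjusted p = 0.0218), and lower than control by -0.27 (adjusted p = 0.247), at a level below the median. Whether its probes also take up *Zeb2* RNA was not tested.

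Among other EMT-associated transcription factors, *Snai3* rose and *Prrx1* fell with TGFβ1. Of 13 such genes analysed (list of 15), 1 rose and 1 fell with TGFβ1, with a median of 0.03, and 2 rose without ITD-1 replicate 3. *Sox4*, named after its values were seen, also differed from control by 0.80, but with an SE of 0.26 it was not called (adjusted p = 0.121). Between TGFβ1 and ITD-1, 4 of the 13 were called higher with TGFβ1 (2 to 4 when 1 array was left out) and 1 lower, *Prrx1*. *Snai3*, the third member of the Snail family, gave 4.77, 4.79 and 4.77 in control, 5.65, 5.63 and 5.44 with TGFβ1, and 4.33, 4.20 and 4.21 with ITD-1, with no overlap between any groups. Its rise with TGFβ1 was 0.80 (SE 0.07, 1.74-fold, adjusted p = 0.000186). The ITD-1 difference was -0.53 (adjusted p = 0.0149), which was not called without control replicate 1 (0.0856), control replicate 2 (0.0844), control replicate 3 (0.0692) or ITD-1 replicate 2 (0.0637). *Prrx1*, a homeobox factor of mesenchyme, gave 8.05, 8.10 and 8.18 in control, 7.35, 7.33 and 7.14 with TGFβ1, and 8.03, 7.93 and 7.84 with ITD-1, and fell by 0.83 with TGFβ1 (SE 0.08, 1.78-fold, adjusted p = 0.000256). That the responses of *Snai3* and of *Snai1* or *Snai2* differ from each other was not tested.

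**Figure D3:**
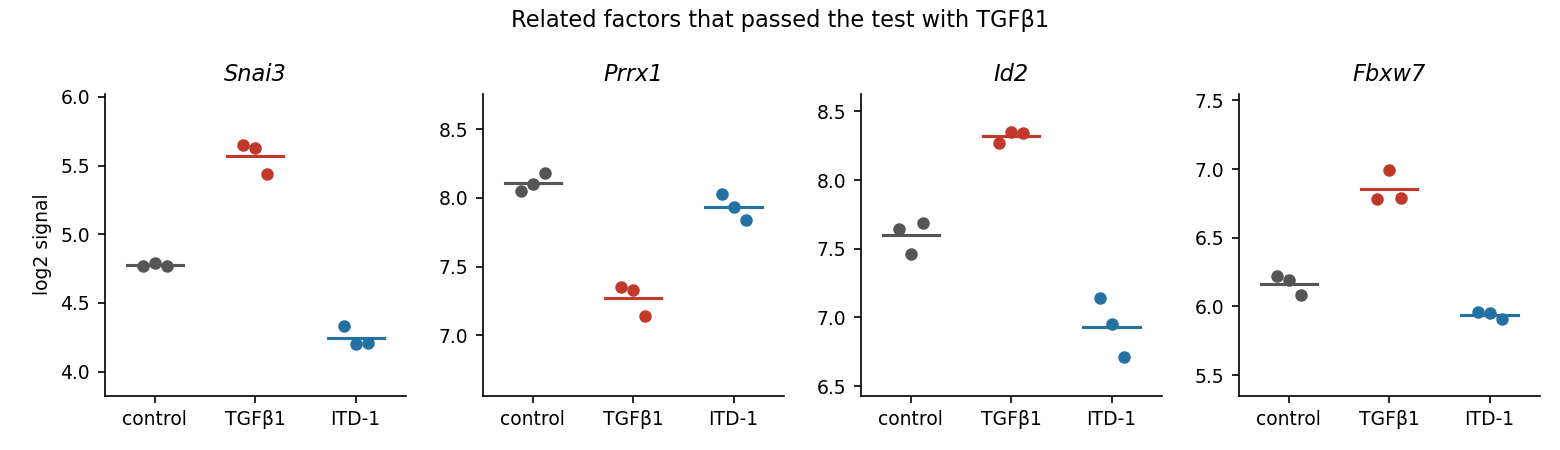
Log2 signal (y axis, every panel spanning 2.2 units) of each array (points) and group mean (lines) for *Snai3*, *Prrx1*, *Id2* and *Fbxw7* in the 3 groups (x axis, 3 arrays each). *Snai3*, *Id2* and *Fbxw7* are highest and *Prrx1* is lowest with TGFβ1, with no overlap with control arrays.

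Among the partners of the 6 proteins, 1 of 7 genes for E proteins and their ID inhibitors rose with TGFβ1 and 1 fell with ITD-1, and both times it was *Id2*, whose product takes E proteins away from bHLH factors such as TWIST1. *Id2* gave 7.64, 7.46 and 7.69 in control, 8.27, 8.35 and 8.34 with TGFβ1, and 7.14, 6.95 and 6.71 with ITD-1. Its rise was 0.73 (1.65-fold, adjusted p = 0.00308) and its fall -0.66 (adjusted p = 0.0296), the latter no longer called when any one array other than ITD-1 replicate 1 was left out (adjusted p up to 0.153). Of 17 corepressor and chromatin partner genes (list of 18), 1 rose with TGFβ1, *Ctbp2*, which encodes a corepressor that ZEB proteins recruit, by 0.39 (adjusted p = 0.0384), a call lost without any one array other than TGFβ1 replicate 1 (adjusted p up to 0.144). Of 13 genes for SNAI protein stability and localisation (list of 14), 1 rose, *Fbxw7*, a substrate receptor of a ubiquitin ligase, from 6.22, 6.19 and 6.08 in control to 6.78, 6.99 and 6.79 with TGFβ1 (by 0.69, adjusted p = 0.000467), and the count was 2 without ITD-1 replicate 1 or ITD-1 replicate 3. None of the corepressor or stability genes was called with ITD-1 against control. Between TGFβ1 and ITD-1, 2 of the 17 corepressor genes were called higher with TGFβ1 (1 to 4 when 1 array was left out). So were 2 of the 13 stability genes, and 0 of either list were lower. Of the 7 E protein and ID genes, *Id2* was called higher in that comparison and 1 was called lower. The latter was *Tcf4*, named after its values were seen (0 to 1 called lower when 1 array was left out). The 7 microRNA genes analysed, among them *Mir200a*, *Mir200b*, *Mir200c*, *Mir141* and *Mir205*, were all below the median level, and 0 of 7 were called in any comparison. Whether these probe sets of a whole-transcript array read the mature forms printed above was not tested, so the levels of the mature microRNAs are not known from them.

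Of 32 epithelial genes (list of 33), which these factors repress in EMT, only 15 were at or above the median level. With TGFβ1, 1 rose and 2 fell, with a median of -0.04, and 0 were called with ITD-1. Between TGFβ1 and ITD-1, 3 were called higher with TGFβ1 (1 to 3 when 1 array was left out). The 2 called lower there were *Patj* and *Grhl3*. E-cadherin (*Cdh1*), the best-known target of SNAI and ZEB repression, gave 4.09, 4.08 and 4.07 in control and 4.05, 4.05 and 3.98 with TGFβ1, a low level and a difference of -0.05 (adjusted p = 0.797). *Jup*, encoding the junction protein plakoglobin, rose by 1.62 (3.07-fold, adjusted p = 0.000411), while *Grhl3*, an epithelial transcription factor, fell by 0.89 (adjusted p = 0.00200) and *Patj*, a polarity gene, fell by 0.47 (adjusted p = 0.00133). Of 19 mesenchymal genes (list of 20), 9 rose and 1 fell with TGFβ1, with a median of 0.30, and 5 fell with ITD-1. Those that rose included *Tnc* (by 2.87), *Fn1* (by 1.60), *Mmp14* (by 1.42) and *Mmp2* (by 0.56), genes of matrix and its turnover. N-cadherin (*Cdh2*) differed by 0.02 (adjusted p = 0.949), and the gene that fell, vimentin (*Vim*, by 0.28), was not called with the replicate block (adjusted p = 0.0508), after median centring (0.0970) or cyclic loess (0.103), or without control replicate 1 (0.103), control replicate 2 (0.0754), TGFβ1 replicate 1 (0.0786), TGFβ1 replicate 2 (0.0692) or TGFβ1 replicate 3 (0.0709). The rises were 5 without control replicate 3 or TGFβ1 replicate 1, and 3 by the methods' criteria. Falls with ITD-1 (*Mmp2*, *Tnc*, *Fn1*, *Cdh11* and *S100a4*, the last named, like *Cdh11* and *Vim*, after their values were seen) were 1 without control replicate 1 or control replicate 2, 2 without control replicate 3, and 3 without ITD-1 replicate 1 or any one TGFβ1 array. Between TGFβ1 and ITD-1, 12 of the 19 mesenchymal genes were called higher with TGFβ1 (8 to 11 when 1 array was left out) and 0 lower. Of 9 myogenic factors and coactivators, 1, *Myf6*, fell with TGFβ1 (by 1.77) and 0 were called with ITD-1.

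**Figure D4:**
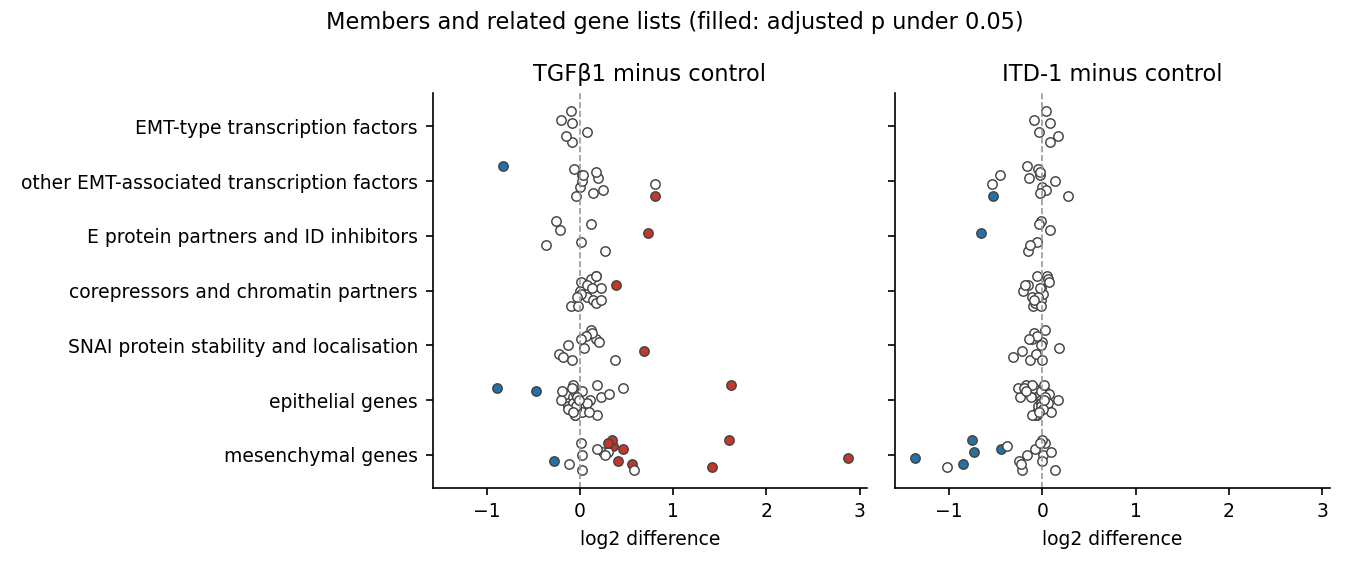
Log2 difference from control (x axis) of every gene analysed (points) in the 6 EMT-type factors and in 6 related lists (y axis, points spread vertically only to separate them), for TGFβ1 and for ITD-1, filled red or blue where the gene was called higher or lower (adjusted p under 0.05). The 6 factors lie between -0.20 and 0.17 with no filled point, while the mesenchymal list has 10 filled points with TGFβ1 and 5 with ITD-1.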

How the data were processed

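The authors normalised the arrays with RMA, using a custom probe set definition of version 22 keyed by Entrez gene, and deposited log2 signals per probe set. They ran an analysis of variance in Partek, calling unadjusted p under 0.05 with a 1.5-fold difference. A table of GEO's platform annotation gave 1 symbol to 24704 of 25428 probe sets; 723 without a symbol and 1 with a repeated symbol were left out. No column of values was left unmapped (0 of 9). No genome build is named in the sources used here, and RefSeq coordinates are GRCm38.p6.

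All 9 arrays were fitted in one linear model per probe set with limma 3.58.1 in R 4.3.3 (lmFit, eBayes), with a term per group and 3 contrasts, adjusted by Benjamini-Hochberg over all 24704 probe sets within each contrast. The threshold was 0.05. The step was tested on simulated data. The number of arrays, 3 per group, limits the precision.

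The 6 genes and the related lists were chosen with earlier results of these data known. Named genes were the 6, the 3 genes most correlated with a called one, the whole TGFβ response list and, from each other list, up to 4 genes called with TGFβ1 and up to 3 called with ITD-1, by lowest adjusted p, plus genes stated as chosen later. Replicate numbers come from the labels. Residuals of same-numbered control and TGFβ1 arrays correlated at 0.138 to 0.305, over 0.1 in 3 of 3 pairs, so a fit with the replicate block was run as well. Alternatives covered median centring, cyclic loess, level filters, array weights, the methods' criteria, a fit of the 2 groups only, the block and leaving out each array.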

Additional observations from a re-analysis of the deposited data

How the results depend on the processing

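The 3 arrays per group limit the precision to the printed intervals. Of 20 alternatives, 18 were planned and 2 (the replicate block in a fit of the 2 groups only, and the unnamed probe sets added) were chosen after seeing the data. The counts of the 6 genes called stayed at 0 in both directions for TGFβ1 against control and for ITD-1 against control under all 20, and at 0 higher for TGFβ1 against ITD-1. The 1 gene called lower there, *Zeb2*, became 0 with the unmoderated analysis of variance after adjustment (adjusted p = 0.0542), with the methods' criteria, in a fit of the 2 groups only (0.0640) and with the replicate block in that fit (0.118). Leaving out 1 array gave counts of 0 to 1, log2 differences of -0.36 to -0.26 and adjusted p of 0.0327 to 0.1002, with the call lost in 4 of 9 cases and the cause not tested. The level filter left no value for *Twist1* and *Twist2*.

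With the replicate block in all 9 arrays the counts were 0 for TGFβ1 against control, 0 for ITD-1 against control and 1 (*Zeb2*) for TGFβ1 against ITD-1, so it changed no call of the 6. Same-numbered residuals correlated at -0.0707 to 0.146 between control and ITD-1 and at -0.117 to 0.0869 between TGFβ1 and ITD-1. Differently numbered ones correlated at -0.1206 to 0.1609 and at -0.08848 to 0.1675, the highest in both cases being ITD-1 replicate 2 with replicate 3. The labels do not say what the numbers mark, and whether arrays of different groups share a batch was not tested. For ITD-1 against control, the block gave *Id2* an adjusted p of 0.0773 and 3 mesenchymal genes called lower in place of 5.

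Among differences that did not pass the test, some signs turned when an array was left out. For TGFβ1 against control, *Snai1* ranged from -0.197 to 0.055 (above 0 without control replicate 1) and *Twist1* from -0.032 to 0.205 (below 0 without TGFβ1 replicate 1). For ITD-1 against control, *Snai1* ranged from -0.278 (without ITD-1 replicate 3) to 0.323, with -0.012 without control replicate 2, and was -0.055 with array weights. *Twist1* there ranged from -0.121 to 0.051 (above 0 without ITD-1 replicate 2) and *Twist2* from -0.027 to 0.135 (below 0 without ITD-1 replicate 3 and, at -0.024, without control replicate 2). For TGFβ1 against ITD-1, *Snai1* ranged from -0.417 to 0.185, the latter without ITD-1 replicate 3.

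For TGFβ1 against control, the 1 gene of SNAI stability called higher became 2 with median centring, cyclic loess, the level filter, the trend and robust settings, array weights and the fit of the 2 groups only, with or without the block. The 1 other EMT-associated factor called higher became 2 by the methods' criteria and in that fit, with or without the block. *Ctbp2* was not called after cyclic loess, with array weights, by either form of the methods' analysis of variance or in the fit of the 2 groups only. The 1 epithelial gene called higher became 2 with array weights and with the block in the fit of the 2 groups, and the 2 called lower became 1 by the methods' criteria.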

Other observations

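The arrays did not deviate from their group means to the same extent. The standard deviation of the residuals over all probe sets ran from 0.107 to 0.149, and the highest belonged to ITD-1 replicate 3, the array with the outlying *Snai1* value of 5.27 and with the lowest weight when limma estimated array weights (0.494).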
